A study of Mus musculus with 12 samples.

Results

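The 9 genes described here encode enzymes of the methionine cycle, of methyl transfer and of transsulfuration in mouse liver: *Mat1a*, *Mat2a*, *Gnmt*, *Pemt*, *Ahcy*, *Bhmt*, *Bhmt2*, *Cbs* and *Cth*. They were listed by name and found by matching the Entrez identifiers of the count table to mouse symbols, and all 9 were present among 27179 counted genes and among the 13947 genes with enough counts to be tested. The rule used no measured value, although results of these data were known when the list was drawn up.

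The livers came from 4 groups of 3 young adult male mice. They were fed a chow diet (CD) or one low in protein (LPD), and on either were injected through the tail vein with the Sleeping Beauty transposase together with vector control plasmids (Vec) or with plasmids for human c-MET and N-terminally truncated, constitutively active β-catenin (c-MET/β-catenin), driven by the EF1α promoter. The sample labels call the vector controls WT, and the columns of the count table name the chow groups with the letters HPD, which the study uses elsewhere for a high-protein diet. The groups here follow the sample titles; if the column names were right, each value given for CD would belong to that diet. The background of the mice is given in one place as a mixture of 129/Ola with C57BL/6 and in another as C57/Bl3. Hydrodynamic injection reaches only some hepatocytes, the mouse genome does not hold the human MET transgene, and all 4 groups were taken when the CD c-MET/β-catenin mice reached their end point, so the oncogene livers of the diets were compared at one time, which need not be one tumor stage.

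Methionine is activated to S-adenosylmethionine (SAM), the methyl donor of the cell, by methionine adenosyltransferase. Adult hepatocytes mainly use the *Mat1a* product, whereas most other tissues, fetal liver and dividing cells use the *Mat2a* product. Methyltransferases turn SAM into S-adenosylhomocysteine, which *Ahcy* splits to homocysteine; homocysteine is either methylated again to methionine or passed by *Cbs* and *Cth* to cysteine, the precursor of glutathione and taurine.

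The transcription start regions of 3 genes are given first because their transcripts moved in the largest steps or differed in response between diets, and that of *Pemt* because it held the only match, among the 7 genes with a promoter entry, to the TCF and LEF motif through which β-catenin acts. Each run is the 250 bases upstream of the RefSeq start in build GRCm38.p6, written 5′ to 3′ on the strand of the gene, with motif matches in capitals.
Mat2a (chr6:72439557-72439806, minus strand): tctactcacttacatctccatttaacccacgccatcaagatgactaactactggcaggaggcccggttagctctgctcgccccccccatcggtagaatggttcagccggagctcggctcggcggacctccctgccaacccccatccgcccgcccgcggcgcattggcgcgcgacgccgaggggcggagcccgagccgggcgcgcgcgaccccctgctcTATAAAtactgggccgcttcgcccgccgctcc
Ahcy (chr2:155074498-155074747, minus strand): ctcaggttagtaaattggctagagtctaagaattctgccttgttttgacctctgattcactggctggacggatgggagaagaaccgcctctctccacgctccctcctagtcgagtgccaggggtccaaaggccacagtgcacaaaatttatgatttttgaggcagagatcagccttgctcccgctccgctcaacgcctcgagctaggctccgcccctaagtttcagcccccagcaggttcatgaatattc
Gnmt (chr17:46729166-46729415, minus strand): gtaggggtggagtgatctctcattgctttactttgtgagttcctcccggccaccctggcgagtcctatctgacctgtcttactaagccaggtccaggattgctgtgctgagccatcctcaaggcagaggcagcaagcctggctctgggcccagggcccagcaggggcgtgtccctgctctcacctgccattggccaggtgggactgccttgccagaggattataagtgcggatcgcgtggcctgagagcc
Pemt (chr11:60037006-60037255, minus strand): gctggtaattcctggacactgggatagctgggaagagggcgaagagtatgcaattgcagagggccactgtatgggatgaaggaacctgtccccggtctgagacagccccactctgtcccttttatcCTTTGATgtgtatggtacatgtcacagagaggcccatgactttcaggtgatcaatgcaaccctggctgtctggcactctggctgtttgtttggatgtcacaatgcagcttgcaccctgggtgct
In *Mat2a* the capitals mark a TATA box, TATAAA, at −32 to −27 from the start, a string found on either strand in 13.6% of 32851 promoters. The regions searched for this and the other shares also held the first bases after the start. In *Pemt* they mark CTTTGAT at −124 to −118, which 3.73% of all promoters held. *Cbs* held the E-box CACGTG at −229 to −224 (7.15% of all promoters). Searches on both strands for TTGCNNAA (C/EBP, 10.8% of promoters), TGATGNAA (the ATF4 composite, 3.97%), GTTAATNA (an HNF1 element, 2.54%), CAAAGTCCA (HNF4, 0.475%), TGACGTCA (the cAMP element, 1.79%) and TGACNNNGC (the antioxidant element, 12.4%) found none in the 7 genes with an entry, which were these 4 with *Bhmt*, *Bhmt2* and *Cbs*. *Pemt* has another RefSeq start, not shown, upstream of which none of the motifs was found. Both *Pemt* starts lie inside the span of the gene (chr11:59970614-60046561), and the bases upstream of its outer end were not searched. The C plus G content was 67.6% in *Mat2a*, 52.8% in *Ahcy* and 60.4% in *Gnmt*, beside a median of 52.4% over all promoters.

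The genes lie on 7 chromosomes, and the only close neighbours are *Bhmt* (Entrez 12116, chr13:93616891-93637758, minus strand) and *Bhmt2* (Entrez 64918, chr13:93656097-93674302, minus strand), which have the same orientation with 18338 bases between them in GRCm38.p6. *Mat1a* (Entrez 11720) is at chr14:41105012-41124428, plus strand. *Mat2a* (Entrez 232087) is at chr6:72432796-72439556, minus strand. *Gnmt* (Entrez 14711) is at chr17:46725664-46729211, minus strand. *Ahcy* (Entrez 269378) is at chr2:155059310-155074497, minus strand. *Pemt* (Entrez 18618) is at chr11:59970614-60046561, minus strand. *Cbs* (Entrez 12411) is at chr17:31612623-31637233, minus strand. *Cth* (Entrez 107869) is at chr3:157894248-157925081, minus strand. Of all 50-base words in the annotated transcripts of *Ahcy*, 68.7% also occur in transcripts of other annotated genes, chiefly Gm4737 and Gm9826, and for *Bhmt* the share was 25.3%. Counts of these genes are therefore uncertain where reads could be split or dropped. *Mat2a* shares 508 exon bases with Particl on the opposite strand, and *Bhmt* 187 with Gm15622. In the other 7 genes the shared words made up 0% to 4.99% of the transcript.

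Libraries held 19476209 to 31990267 counts, and 1 CPM (1 count in 1000000 of the TMM-scaled library) stood for 17.6 counts in the smallest scaled library and 34.6 in the largest. Replicates spread by a biological coefficient of variation of 23.2%. Labels name the cells hepatocytes, but the tissue was whole liver: 7 hepatocyte markers summed to 65263 to 115940 CPM per library, and markers of macrophages, endothelium, stellate cells, cholangiocytes, blood and immune cells were detected too. In such tissue fewer cells of a type and less RNA per cell cannot be told apart. The numbers in the header of the count table fall into 3 runs that the labels do not explain: CD c-MET/β-catenin libraries 1 and 2 stand alone in one run, CD Vec libraries 1 and 2 share another with LPD Vec library 1, and the other 7 libraries form the third.

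On CD, c-MET/β-catenin livers had less of most of the pathway and more *Mat2a*. Of the 9 transcripts, 6 were lower (*Mat1a*, *Gnmt*, *Ahcy*, *Bhmt2*, *Cth* and *Pemt*) and 1 was higher (*Mat2a*) at an adjusted p under 0.05 (edgeR quasi-likelihood test, Benjamini-Hochberg over all genes tested). This comparison called 35.4% of all tested genes, 18.7% higher and 16.7% lower. *Bhmt* and *Cbs* did not pass. The median log2 fold change was −1.03 over the 9 transcripts and −0.01 over all genes. In 7 of 9 the libraries of CD Vec and CD c-MET/β-catenin did not overlap, as was true of 42.6% of all genes.

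On LPD the same comparison called 1 of 9, *Pemt*, which was lower; 1.32% of all genes were called, 1.15% higher and 0.165% lower. Of the 9 transcripts, 8 had a fold change below 0 on LPD, as on CD, and 4 had an unadjusted p under 0.05 (*Mat1a*, *Bhmt2*, *Cth* and *Pemt*), as had 11.1% of all genes. The median log2 fold change was −0.59 and groups did not overlap in 6 of 9, against 25.2% of all genes. The difference between the oncogene effects on the 2 diets, tested as an interaction, was called for *Mat2a* and *Ahcy*, 2 of 9, beside 8.91% of all genes (4.49% above 0 and 4.42% below).

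Between diets, no transcript of the 9 was called in Vec livers by edgeR (0.308% of all genes were, 0.186% higher and 0.122% lower), while 2 had an unadjusted p under 0.05 (*Gnmt* and *Ahcy*), beside 9.87% of all genes, and DESeq2 called 1 (*Ahcy*) and 339 over all genes. Groups did not overlap in 5 of 9, against 17.2% of all genes. In c-MET/β-catenin livers the diets differed in 1 of 9, *Mat2a*, which was lower on LPD; 20% of all genes were called there, 8.66% higher and 11.3% lower. Only 2 of 9 had groups that did not overlap (*Mat2a* and *Cbs*), against 39.3% of all genes.

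**Figure D1:**
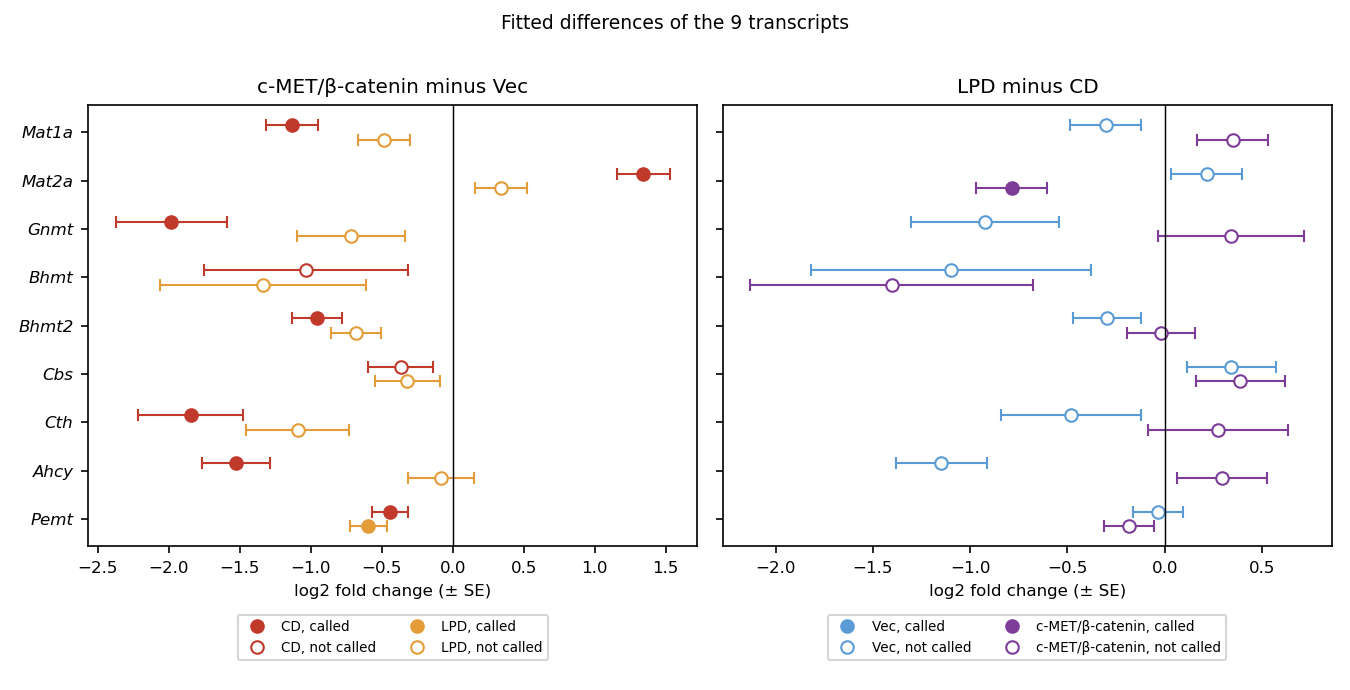
Fitted log2 fold changes (x axis, ± SE) of the 9 transcripts (y axis), with the oncogene effect on each diet at left and the diet effect with and without oncogenes at right; filled points passed an adjusted p of 0.05. At left the filled CD points lie below 0 for 6 genes and above 0 for *Mat2a*, and the LPD point of *Ahcy* sits near 0 at −0.08.

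Several other features moved with the oncogene effect on CD. All 6 periportal markers were lower (summed CPM 3743 to 5841 in CD Vec and 853 to 1187 in CD c-MET/β-catenin), 4 of 6 pericentral markers were higher (7620.0 to 13754 and 15052 to 18883), and all 4 cell cycle markers were higher (2.33 to 9.95 and 100.5 to 142 CPM). Of the 7 hepatocyte markers 3 were lower, with sums of 99979 to 105050.0 CPM in CD Vec and 87610.0 to 93516 in CD c-MET/β-catenin. Stellate markers (3 of 6 higher, 1 lower) summed to 38.0 to 65.1 CPM and 53.7 to 264, and 2 of 3 neutrophil markers tested were higher. Also higher were, of those tested, 2 of 3 erythroid, 1 of 6 macrophage, 1 of 4 T and NK cell and 1 of 5 cholangiocyte markers, and 1 of 5 endothelial markers was lower; no B cell marker was called. On LPD, cell cycle markers summed to 4.22 to 4.99 CPM in Vec and 13.4 to 41.5 in c-MET/β-catenin, and periportal markers to 2379 to 3820 and 2833 to 3427. Pericentral markers (3 of 6 higher on LPD) summed there to 5611 to 8469 CPM in Vec and 9552.5 to 11957 in c-MET/β-catenin. Between diets in c-MET/β-catenin livers, all 4 cell cycle and 3 of 6 pericentral markers were lower on LPD, 4 of 6 periportal markers were higher, and 2 of 7 hepatocyte markers were higher and 2 lower. There 2 of 6 stellate, 2 of 3 neutrophil, 2 of 3 erythroid, 1 of 5 cholangiocyte and 1 of 6 macrophage markers were also lower on LPD, and 1 of 6 stellate, 1 of 5 endothelial and 1 of 4 B cell markers higher. Their part in the results was not tested. Within the third header run, with 1 library in each CD group, all 9 oncogene effects on CD kept their sign, as did 8 on LPD and 8 and 7 of the diet differences in Vec and c-MET/β-catenin livers, but with the header run as a term of the fit only *Mat2a* was called on CD and none of the 9 in the other comparisons. Under that term the 6 other fold changes called on CD ran from −1.44 for *Cth* to −0.46 for *Pemt*, with larger SE; that of *Gnmt* went from −1.98 to −1.30.

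*Mat1a*, the adult liver form of methionine adenosyltransferase, was counted at 3729, 3542 and 3766 CPM in CD Vec and at 1999, 1402 and 1629 CPM in CD c-MET/β-catenin. In LPD Vec it was at 3519.7, 2515 and 2909 CPM and in LPD c-MET/β-catenin at 1819.8, 2079.9 and 2503 CPM. Every oncogene library lay below every Vec library of the same diet, and the 3 CD Vec libraries were close to each other and higher than all others. The log2 fold change on CD was −1.13 (adjusted p = 0.000699, SE 0.19), and with the header run term it was −1.07 with an adjusted p of 0.0717. On LPD it was −0.48 (adjusted p = 0.317, SE 0.18) and did not pass. The diets did not differ past the threshold in Vec livers (−0.30, adjusted p = 0.637) or oncogene livers (0.35, adjusted p = 0.206).

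*Mat2a*, the catalytic subunit used outside adult hepatocytes, was counted at 67.0, 97.5 and 66.8 CPM in CD Vec and at 222, 157 and 207 CPM in CD c-MET/β-catenin. LPD Vec libraries held 81.2, 104 and 83.1 CPM and LPD c-MET/β-catenin libraries 110.1, 125 and 105 CPM. The CD c-MET/β-catenin libraries were the 3 highest of all 12 and overlapped with no other group, while the lowest LPD c-MET/β-catenin library was only just above the highest LPD Vec library. Its log2 fold change on CD was 1.34 (adjusted p = 0.000253, SE 0.18); it passed whichever of the 12 libraries was left out and with the header run term (1.46, adjusted p = 0.0224). On LPD the value was 0.34 (adjusted p = 0.55, SE 0.18). In c-MET/β-catenin livers LPD had less *Mat2a* than CD, −0.79 (adjusted p = 0.0112, SE 0.18), a call lost when LPD c-MET/β-catenin library 3 was left out (adjusted p = 0.0523) and with the header run term (0.0999). Vec livers gave a diet difference of 0.22 (adjusted p = 0.758). The interaction was −1.003 (adjusted p = 0.0345, SE 0.26); it passed in 4 of the 12 fits without 1 library, with adjusted p from 0.0131 to 0.093.

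**Figure D2:**
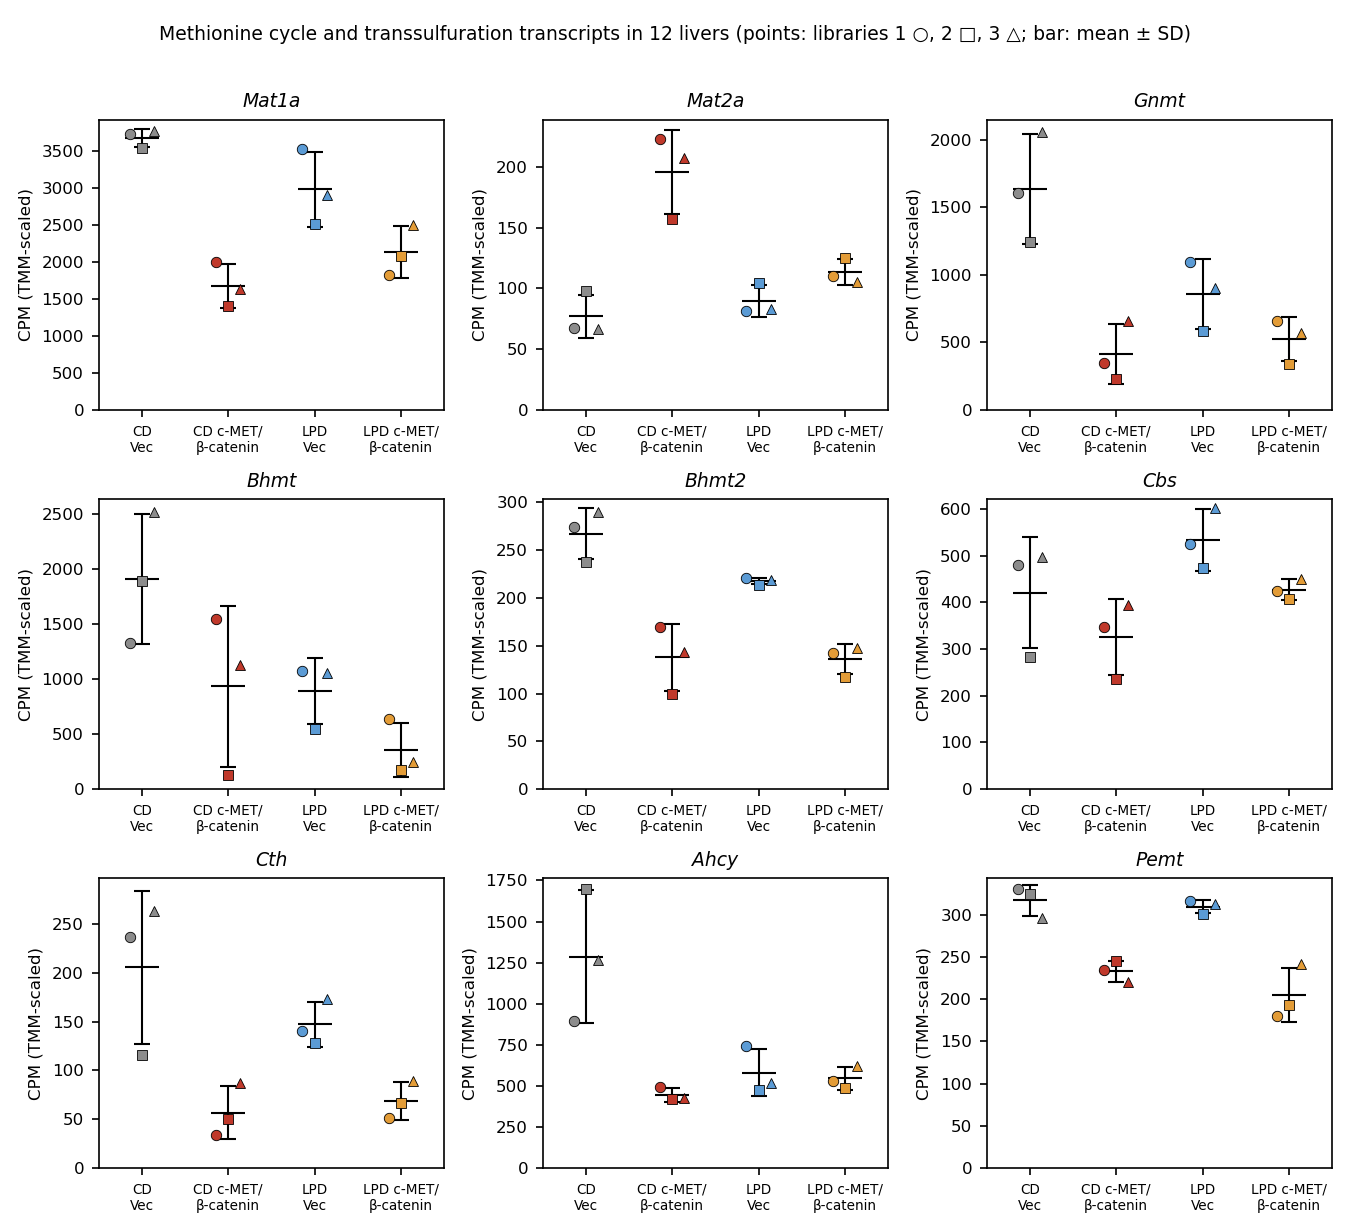
TMM-scaled CPM (y axes, linear from 0) of each transcript in the 12 livers by group (x axes); points are libraries 1, 2 and 3 as circle, square and triangle, and bars are the mean ± SD of 3. *Mat2a* was highest in the 3 CD c-MET/β-catenin livers, *Ahcy* was highest in the 3 CD Vec livers, and *Bhmt* had the largest SD relative to its mean within both c-MET/β-catenin groups.

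The ratio of the 2 synthetase transcripts within a library does not depend on library scaling, and on each diet it was higher in every c-MET/β-catenin liver than in any Vec liver. Per kilobase of exon, *Mat2a* made up 1.37%, 2.08% and 1.35% of the pair in the CD Vec livers and 7.92%, 7.95% and 8.96% in the CD c-MET/β-catenin livers. On LPD the shares were 1.75%, 3.11% and 2.16% in Vec and 4.47%, 4.44% and 3.14% in c-MET/β-catenin livers. *Mat1a* remained the more abundant transcript in every liver, by 10.2 to 72.9 times per kilobase. The log2 ratio differed by 2.50 between the CD groups and by 0.83 between the LPD groups, in both without overlap (exact two-sided permutation p = 0.1 each, the smallest that 3 against 3 can give). In c-MET/β-catenin livers it differed by −1.13 between LPD and CD, without overlap (exact permutation p = 0.1), and in Vec livers by 0.55 (exact permutation p = 0.2).

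**Figure D3:**
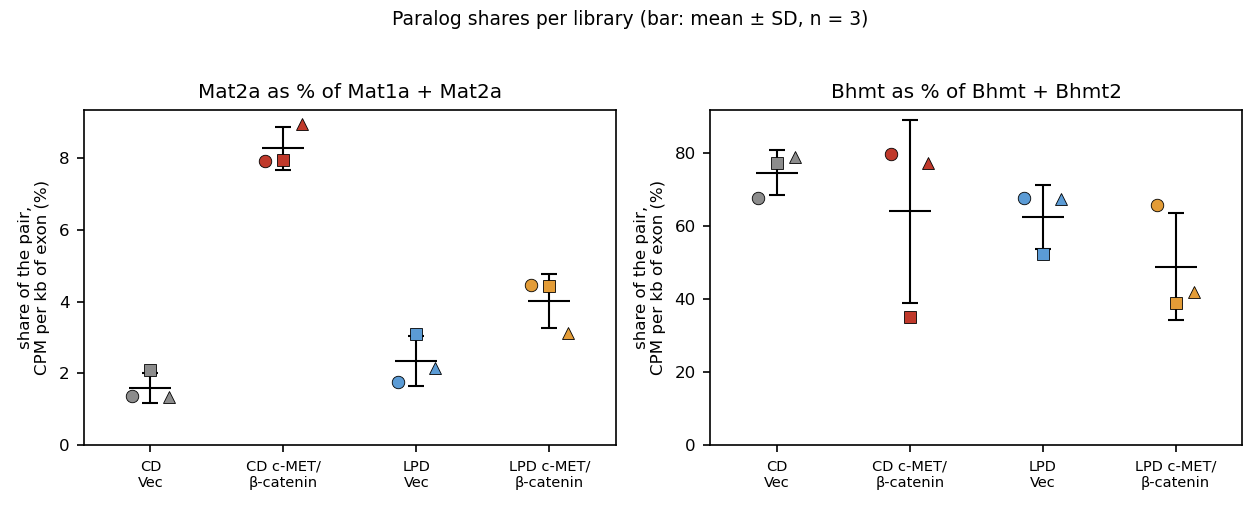
Share of each paralog pair (y axes, percent of the summed CPM per kilobase of exon) in the 12 livers by group (x axes), with *Mat2a* at left and *Bhmt* at right; points are libraries 1, 2 and 3 as circle, square and triangle and bars are mean ± SD. The *Mat2a* share was 7.92% to 8.96% in CD c-MET/β-catenin livers and at most 4.47% in any other, while the *Bhmt* shares overlapped in each of the 4 comparisons.

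*Gnmt*, glycine N-methyltransferase, disposes of excess SAM in hepatocytes by methylating glycine to sarcosine. Its libraries held 1608, 1242 and 2055 CPM in CD Vec and 349.6, 232 and 658 CPM in CD c-MET/β-catenin, and 1098, 583 and 902 CPM in LPD Vec and 660.4, 343 and 566 CPM in LPD c-MET/β-catenin. The lowest CD Vec library lay above every library of the other groups, and the 2 LPD groups overlapped. The log2 fold change on CD was −1.98 (adjusted p = 0.00233, SE 0.39), and the header run term brought it to −1.30 with an adjusted p of 0.17. On LPD it was −0.72 (adjusted p = 0.541, SE 0.38). In Vec livers the diet difference was −0.93 (unadjusted p = 0.0317, adjusted p = 0.434) with groups that did not overlap. The interaction was 1.27 (adjusted p = 0.161, SE 0.53) and passed when CD c-MET/β-catenin library 3 was left out (1.78, adjusted p = 0.0363).

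*Pemt* methylates phosphatidylethanolamine to phosphatidylcholine and is a major consumer of SAM in liver. It was the transcript with the smallest oncogene effect among those called on CD and the only one of the 9 called on LPD. CD libraries held 329.8, 324 and 296 CPM in Vec and 235, 245 and 219.8 CPM in c-MET/β-catenin livers, and LPD libraries 316, 300.4 and 313 CPM and 181, 193 and 242 CPM. All 6 oncogene libraries lay below all 6 Vec libraries, and the diets overlapped. The log2 fold change was −0.44 (adjusted p = 0.0191, SE 0.13) on CD and −0.59 (adjusted p = 0.0476, SE 0.13) on LPD. The CD call was lost without CD Vec library 1 (adjusted p = 0.0543), when CD c-MET/β-catenin library 3 was left out (0.0545), in a fit of the CD groups alone (−0.46, adjusted p = 0.0666), with the header run term (adjusted p = 0.256) and when libraries were scaled by total counts alone (−0.15, adjusted p = 0.345), a scaling that moved the median of all genes on CD to 0.28. The LPD call was lost with total counts, no filter, the replicate block and the header run term, and held in 3 of the 12 fits without 1 library (adjusted p 0.0226 to 0.218). The interaction was −0.15 (adjusted p = 0.641, SE 0.18).

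*Ahcy*, the hydrolase that removes S-adenosylhomocysteine, an inhibitor of methyltransferases, was at 895, 1698 and 1267 CPM in CD Vec and 493, 420.4 and 425 CPM in CD c-MET/β-catenin. LPD Vec libraries held 744, 478 and 519 CPM and LPD c-MET/β-catenin libraries 528, 488 and 625 CPM. The 3 CD Vec livers were higher than the other 9, and the 2 LPD groups overlapped. On CD the log2 fold change was −1.53 (adjusted p = 0.000507, SE 0.24), with an adjusted p of 0.0587 and a fold change of −1.40 under the header run term. On LPD it was −0.08 (adjusted p = 0.951, SE 0.23), and its sign turned with total count scaling, with the header run term and without LPD Vec library 1. Between Vec livers the log2 difference of LPD from CD was −1.15 (adjusted p = 0.0685, SE 0.23), which missed the threshold; DESeq2 gave an adjusted p of 0.000414, and without CD Vec library 1 the value was −1.35 (adjusted p = 0.0263). The interaction was 1.44 (adjusted p = 0.0222, SE 0.33). It was lost without LPD Vec library 2 (0.0694), LPD Vec library 3 (0.0607) or LPD c-MET/β-catenin library 3 (adjusted p = 0.0613).

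*Bhmt* and *Bhmt2* methylate homocysteine, with betaine and with S-methylmethionine as the donor. *Bhmt* was at 1328, 1887 and 2511 CPM in CD Vec, 1541, 126 and 1128 CPM in CD c-MET/β-catenin, 1070.1, 549 and 1052 CPM in LPD Vec and 633, 175 and 248 CPM in LPD c-MET/β-catenin. The 3 CD c-MET/β-catenin livers spread over 12.2 times from lowest to highest, and of the 4 comparisons only that of the diets in Vec livers had groups that did not overlap. No comparison passed: the log2 fold change was −1.03 (adjusted p = 0.291, SE 0.72) on CD and −1.34 (adjusted p = 0.558, SE 0.72) on LPD, and the diet difference was −1.10 in Vec (adjusted p = 0.674) and −1.40 in the oncogene livers (adjusted p = 0.202). When library 2 of CD c-MET/β-catenin, the lowest of all 12, was left out, the value on CD was −0.52, and without library 1 it was −1.60. Without library 2 the diet difference in oncogene livers was −1.92 (adjusted p = 0.0256).

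*Bhmt2* varied less than its neighbour. It was at 274, 238 and 289.8 CPM in CD Vec and 169.7, 99.95 and 144 CPM in CD c-MET/β-catenin, and at 221, 214 and 219 CPM in LPD Vec and 142, 118 and 148 CPM in LPD c-MET/β-catenin. Oncogene and Vec livers did not overlap on either diet. The log2 fold change was −0.96 (adjusted p = 0.00151, SE 0.18) on CD, with an adjusted p of 0.0998 and a fold change of −0.94 under the header run term, and −0.68 (adjusted p = 0.0945, SE 0.18) on LPD. The LPD value passed by DESeq2 (adjusted p = 0.011), in a fit of the LPD groups alone (0.0128) and when library 1 (0.0485) or 2 (0.037) of CD c-MET/β-catenin was left out. Between diets it was −0.29 for Vec and −0.02 for oncogene livers (adjusted p = 0.631 and 0.952).

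*Cbs* joins homocysteine to serine in the first step of transsulfuration, and *Cth* splits the product to cysteine in the next. *Cbs* was at 481, 284 and 498 CPM in CD Vec, 348, 236 and 395 CPM in CD c-MET/β-catenin, 526, 473 and 603 CPM in LPD Vec and 425, 407 and 450.3 CPM in LPD c-MET/β-catenin. CD Vec library 2 was low and lay within the range of the CD c-MET/β-catenin livers, while the LPD groups did not overlap. The log2 fold change on CD was −0.37 (adjusted p = 0.234, SE 0.23), and without that library −0.59 (adjusted p = 0.0377). The value was −0.18 without library 2 of CD c-MET/β-catenin, −0.23 without CD Vec library 3, −0.22 with the header run term and −0.09 with total counts, with no call. On LPD it was −0.32 (adjusted p = 0.707, SE 0.23), and the diet differences were 0.34 for Vec and 0.39 for oncogene livers, with no call.

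*Cth* was lower with oncogenes on CD. Its libraries held 237, 116 and 263 CPM in CD Vec and 33.7, 50.02 and 87.3 CPM in CD c-MET/β-catenin, and 139.9, 128 and 173 CPM in LPD Vec and 51.0, 66.5 and 89.3 CPM in LPD c-MET/β-catenin. All 6 oncogene libraries lay below all 6 Vec libraries, with CD Vec library 2 the lowest of the Vec livers. The log2 fold change was −1.85 (adjusted p = 0.00262, SE 0.37) on CD and −1.09 (adjusted p = 0.232, SE 0.36) on LPD, where it did not pass except in a fit of the 2 LPD groups alone (−1.09, adjusted p = 0.0445). With the header run term the CD value was −1.44 (adjusted p = 0.113). The interaction was 0.76 (adjusted p = 0.38, SE 0.51).

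Per kilobase of exon, *Gnmt* and *Mat1a* led the order of levels in CD Vec, at 1356 ± 338 and 1061 ± 34.6 CPM per kilobase (mean ± SD, n = 3), followed by *Ahcy* (459 ± 143), *Bhmt* (331 ± 103), *Pemt* (151 ± 8.61), *Bhmt2* (108 ± 10.7), *Cth* (73.5 ± 28.1), *Cbs* (56.2 ± 15.9) and *Mat2a* (17.2 ± 3.93). *Gnmt* and *Mat1a*, *Ahcy* and *Bhmt*, *Bhmt2* and *Cth*, and *Cth* and *Cbs* were neighbours whose ranges of mean ± SD overlapped. In CD c-MET/β-catenin livers *Mat1a* was at 483 ± 86.8, *Gnmt* at 343 ± 182, *Bhmt* at 162 ± 126 and *Ahcy* at 159 ± 14.6 CPM per kilobase, while *Mat2a*, at 43.6 ± 7.69, stood level with *Cbs* (43.6 ± 11.0) and above *Cth* (20.4 ± 9.85). In both LPD groups *Mat1a* and *Gnmt* came first and second, and *Mat2a* was last in LPD Vec (19.97 ± 2.88) and next to last in LPD c-MET/β-catenin (25.3 ± 2.33), level with *Cth* (24.7 ± 6.91).

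The genes whose log2 CPM followed *Mat1a* most closely over the 12 libraries were Adh5, Mgmt and Rbm47, with Pearson's r of 0.963, 0.961 and 0.952. For *Gnmt* they were Slc25a15 (0.983), Ass1 (0.976) and Sardh (0.955), of which Ass1 is a urea cycle enzyme, Slc25a15 the mitochondrial ornithine carrier and Sardh the enzyme that oxidizes the sarcosine made by *Gnmt*. For *Mat2a* they were Aurka (0.969), a mitotic kinase, Atp6v0e (0.963) and Tubb5 (0.962), a tubulin. These values describe 12 libraries that share their group differences and carry no test.

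Another 71 genes of connected pathways, all tested, were counted by list. On CD 41 of them were called, 13 higher and 28 lower (57.7%, beside 35.4% of all genes); with the header run term 11 were. Of the 25 genes named below that were called on CD, that term kept the calls of 9 (Chka, Dmgdh, Ftcd, Ggct, Gss, Mthfd1l, Mthfd2, Slc7a11 and Suox). It made the log2 fold change over 1.5 times smaller in 4, to −0.70 for Ahcyl2, −0.37 for Hnmt, −0.64 for Shmt1 and −0.84 for Aldh1l1. On LPD the count was 2, both lower (2.82%, beside 1.32%). Between diets it was 2 in Vec livers, both higher (2.82%, beside 0.308%), and 20 in c-MET/β-catenin livers, 10 in each direction (28.2%, beside 20%). Without single libraries these counts ran from 1 to 6 and from 10 to 29, and under the other settings from 1 to 15 and from 5 to 28. The interaction was called for 15, with 9 above 0 and 6 below (21.1%, beside 8.91%), and this count ran from 7 to 19 as single libraries were left out; with the header run term it was 2, Chka and Ggct. By list on CD, calls were made for 5 of 7 partners of the methionine cycle (1 higher), 5 of 8 genes of betaine and choline supply (1 higher), 3 of 7 small molecule methyltransferases (none higher), 12 of 19 folate genes (5 higher), 4 of 8 genes of methionine salvage (1 higher), 4 of 9 genes of cysteine and taurine catabolism (none higher), 3 of 6 genes of glutathione synthesis (all higher) and 5 of 7 genes of vitamin supply (2 higher).

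Among the partners of the cycle, Adk, which clears the adenosine released by *Ahcy*, went from 680.3 ± 24.8 CPM in CD Vec to 357 ± 38.4 in CD c-MET/β-catenin (mean ± SD, n = 3), with 557 and 491 on LPD. Its log2 fold change on CD was −0.93 (adjusted p = 0.000468, SE 0.14). The Ahcy-like gene Ahcyl2 also fell (−1.23). Of the steps that make and use betaine, Aldh7a1 (−1.21), Dmgdh (−1.80) and Sardh (−1.58) were lower on CD. Dmgdh and Sardh oxidize dimethylglycine and sarcosine, the products of *Bhmt* and *Gnmt*. Chka, which draws choline into phosphatidylcholine, was higher, at 19.6 ± 5.89 CPM in CD Vec and 96.8 ± 27.5 CPM in CD c-MET/β-catenin. LPD livers held 42.6 CPM of Chka without and 41.2 with oncogenes, and its interaction was −2.36 (adjusted p = 0.00353, SE 0.34), called whichever library was left out.

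The methyltransferase Inmt had the lowest fold change of the named genes, with 978 ± 249 CPM in CD Vec and 57.8 ± 38.5 CPM in CD c-MET/β-catenin, a log2 fold change of −4.08 (adjusted p = 0.000372, SE 0.58). On LPD it was at 444 and 255 CPM, and the interaction was 3.28 (adjusted p = 0.023, SE 0.74), called in 9 of 12 fits without 1 library and not with no filter on low counts (adjusted p = 0.0505). Hnmt, which methylates histamine, was also lower on CD (−1.23). In the folate cycle Shmt1 (−1.10), Mthfd1 (−1.19) and Aldh1l1 (−1.27) were lower on CD, as were Ftcd (−1.79), which passes the formimino group of histidine to folate, and Gldc (−2.77), which cleaves glycine. Of the same list, Mthfd2 (3.05), Mthfd1l (2.60) and Aldh1l2 (2.64) were higher, all at low levels: Mthfd2 was at 1.98 ± 0.954 CPM in CD Vec and 16.4 ± 1.47 in CD c-MET/β-catenin. Mthfd2 was at 10.1 and 10.9 CPM on LPD, with an interaction of −2.94 (adjusted p = 0.0147, SE 0.59). Gldc was at 151 and 22.0 CPM on CD and at 162 and 116 CPM on LPD; its interaction of 2.29 (adjusted p = 0.0435, SE 0.62) passed in 4 of 12 fits without 1 library and neither with total counts (adjusted p = 0.0515) nor with no filter (0.0895).

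**Figure D4:**
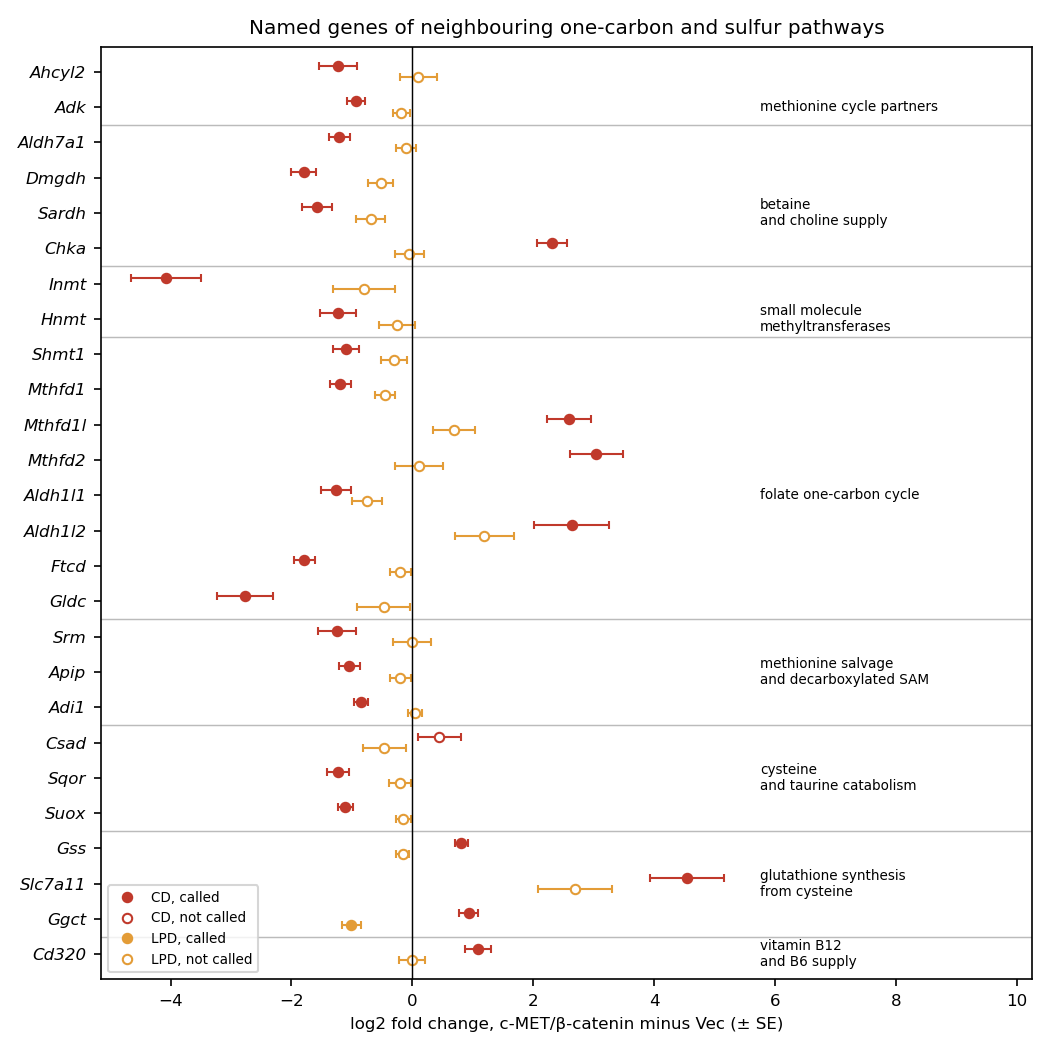
Log2 fold changes (x axis, c-MET/β-catenin minus Vec, ± SE) on CD and LPD of 26 named genes of connected pathways (y axis), grouped by list with lines between lists; filled points passed an adjusted p of 0.05. On CD 25 of the points are filled, all but Csad, and on LPD only Ggct is.

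In methionine salvage, Srm (−1.25), Apip (−1.04) and Adi1 (−0.85) were lower on CD, Srm not in a fit of the CD groups alone (adjusted p = 0.0513); Srm makes spermidine from decarboxylated SAM and the other 2 return its methylthio group to methionine. Sqor (−1.23) and Suox (−1.11), which oxidize sulfide and sulfite from cysteine, were lower too. Csad, which decarboxylates cysteine sulfinic acid on the way to taurine, did not differ past the threshold between Vec and oncogene livers but did between diets: it was at 78.3 ± 12.2 CPM in CD Vec and 779 ± 85.9 CPM in LPD Vec, and at 107 ± 49.7 and 566 ± 203 CPM in the c-MET/β-catenin livers of CD and LPD. The diet difference was 3.31 (adjusted p = 0.00987, SE 0.39) for Vec and 2.40 (adjusted p = 0.00161, SE 0.37) for oncogene livers. The call in Vec livers was lost without CD Vec library 2 (3.21, adjusted p = 0.0604).

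The 3 called genes of glutathione synthesis and turnover were all higher on CD. Gss, glutathione synthetase, was at 89.9 ± 2.04 CPM in CD Vec and 158 ± 7.92 CPM in CD c-MET/β-catenin, and at 131 and 117 CPM on LPD. Its log2 fold change on CD was 0.81 (adjusted p = 0.000247, SE 0.11) and its interaction −0.97 (adjusted p = 0.00574, SE 0.16). Ggct, which breaks down γ-glutamyl peptides, was at 5.86 and 11.2 CPM on CD and 14.3 and 7.09 CPM on LPD, so that it was higher with oncogenes on CD (0.94) and lower with them on LPD, at −1.01 (adjusted p = 0.00824, SE 0.15). Its interaction was −1.94 (adjusted p = 0.00174, SE 0.22). In Vec livers it was higher on LPD by 1.28 (adjusted p = 0.00987, SE 0.16); the LPD and the diet call were lost without LPD Vec library 3 (adjusted p = 0.0564 and 0.055). The diet call was also lost in a fit of the Vec groups alone (adjusted p = 0.0634). The cystine transporter Slc7a11 was called higher on CD, with means of 0.0687 and 1.79 CPM. Every Vec library held under 1 CPM, so its fold, drawn only in the figure of these genes, rests on few counts. Cd320, the receptor that takes up vitamin B12, was at 4.44 and 9.47 CPM on CD (1.09).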

How the data were processed

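Total RNA of 12 snap-frozen livers was sequenced, 1 library per mouse. The labels name a Kapa rRNA depletion kit and the study's methods a TruSeq stranded mRNA kit, so the strand and poly(A) selection behind the values are unsure. According to these sources the authors mapped reads to mm10 with HISAT2 and deposited featureCounts counts per Entrez gene, in 1 table with no normalization; versions, strand setting and the handling of reads with several matches are not given in the sources used here. Symbols were matched through RefSeq and GENCODE tables for 93.1% of 27179 genes.

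Counts were fitted with edgeR 4.0.16 in R 4.3.3 (TMM factors 0.864 to 1.12, filterByExpr, robust quasi-likelihood, 1 coefficient per group, all 4 groups in 1 fit, no covariate). Fold changes are log2, c-MET/β-catenin minus Vec or LPD minus CD; the interaction is the oncogene effect on LPD minus that on CD. Adjusted p-values are Benjamini-Hochberg over 13947 genes, called under 0.05. In the fit reported they weigh a difference against a spread between mice that was estimated over all 4 groups of 3 and drawn toward that of other genes. CPM are TMM-scaled. CPM per kilobase use the union of GENCODE exons in place of the planned RefSeq exons, since the RefSeq table held none. Levels compared between genes depend on these lengths, and no other lengths were tried. Ratios used a prior count of 2 and an exact permutation test. Replicate pairs differed by more than sampling noise (chi-square per gene 29.1 to 174). In simulated counts the fit recovered 95.5%, 96.5%, 97.5%, 96% and 88% of 200 genes changed 4-fold, for the 2 oncogene effects, the 2 diet effects and the interaction, in that order. Every simulated gene had the same biological coefficient of variation, 23.2%. Smaller changes and genes with a wider spread were not simulated.

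Members, gene lists, motifs and tests were chosen with earlier results of these data known. Named genes were the 9 members; of 71 genes in pathway lists those called on CD with an absolute log2 fold change of at least 1, in the interaction or by diet in Vec livers; and the 3 best correlates of *Mat1a*, *Gnmt* and *Mat2a*. Alternatives were DESeq2 1.42.0, its size factors, total counts, no filter, pairs of groups alone, a replicate block, a header run term and leaving out each library; their use on the pathway genes was added after seeing the data. One gene of the pathway lists entered the counts and is not reported here by itself. Promoters are RefSeq sequences on GRCm38.p6.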

Additional observations from a re-analysis of the deposited data

Results flagged for a closer look

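The oncogene effect on LPD differed from that on CD for 2 of the 9 transcripts, each by the interaction term of the edgeR fit over all genes. For *Mat2a* the interaction was −1.003 on the log2 scale (SE 0.26, adjusted p = 0.0345): the oncogene effect was 1.34 on CD and 0.34 on LPD. For *Ahcy* it was 1.44 (SE 0.33, adjusted p = 0.0222): the oncogene effect was −1.53 on CD and −0.08 on LPD. Leaving out single libraries gave −1.20 to −0.89 for *Mat2a* and 1.20 to 1.66 for *Ahcy*, with the call kept in 4 and in 9 of 12 fits (adjusted p up to 0.093 and 0.0694). Within the third header run, where each CD group held only 1 library, the values were −1.36 and 1.71. The replicate block ended the call of *Mat2a* (adjusted p = 0.0503). With the header run as a term the values were −1.11 and 1.44, with larger SE (0.35 and 0.43), and neither passed (adjusted p = 0.18 and 0.161). Reads of *Ahcy* can also come from near-identical copies, whose part was not tested.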

How the results depend on the processing

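Of the 9 transcripts, 7 were called on CD in the fit reported, 1 with the header run term, 6 with total counts or the CD groups alone and 6 to 8 without single libraries. On LPD 1 was called, 0 with total counts, no filter, the replicate block or the header run term, 2 by DESeq2, 3 with the LPD groups alone, and 0 to 2 without single libraries. By diet in Vec livers 0 were called, 1 by DESeq2 and 0 to 1 without single libraries. By diet in c-MET/β-catenin livers the 1 call became 0 with the header run term and 0 to 2 without single libraries. In the interaction the 2 calls became 0 with the header run term and 0 to 2 without single libraries. Differences in the *Mat2a* to *Mat1a* ratio kept their sign in every fit without 1 library.

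Some fold changes turned sign, none of them called. *Ahcy* on LPD was 0.0338 with total counts, 0.0378 with the header run term and −0.21 to 0.13 without single libraries. *Pemt* by diet in Vec livers was 0.068 with total counts and −0.0727 to 0.00098 without single libraries. By diet in c-MET/β-catenin livers *Gnmt* was 0.34 and *Cth* 0.27 in the fit reported, and −0.33 and −0.34 with the header run term. Without single libraries *Bhmt2* ran there from −0.20 to 0.16. The interaction of *Bhmt* was 0.074 with the replicate block and −1.03 to 0.27 without single libraries; that of *Cbs* was −0.12 with total counts, −0.17 with the header run term and −0.14 to 0.27 without single libraries. The causes were not tested.

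Replicate numbers showed no clear pairing of the mice: deviations from the group means correlated at −0.18 to 0.17 between same-numbered libraries. The replicate block ended the calls of *Pemt* on LPD (adjusted p = 0.0955) and of *Mat2a* in the interaction (0.0503), and brought *Gnmt* in the interaction past the threshold (1.33, adjusted p = 0.0435).

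Over all genes, 4933 were called on CD, 184 on LPD, 43 and 2784 by diet in Vec and c-MET/β-catenin livers and 1243 in the interaction. Without single libraries these were 4251 to 4859, 52 to 254, 5 to 104, 1585 to 3660 and 391 to 1404. Leaving out LPD Vec library 1, 2 or 3 brought the LPD count to 52, 54 or 57, and leaving out library 2 of the LPD oncogene livers to 96. That by diet in Vec livers was 103, 8 or 13 without CD Vec library 1, 2 or 3, 6 or 5 without LPD Vec library 2 or 3, 104 or 65 when library 1 or 2 of the CD oncogene livers was dropped and 26 when library 3 of the LPD ones was. Dropping library 1 or 3 of the LPD oncogene livers gave 1795 or 1585 by diet in oncogene livers and 645 or 508 in the interaction, which was 787, 391 or 542 without LPD Vec library 1, 2 or 3. The header run term gave 945, 75, 16, 618 and 85, DESeq2 497 on LPD, 339 by diet in Vec livers and 2083 in the interaction, groups alone 3014 on CD, 505 on LPD and 3 by diet in Vec livers, and the block 16 by diet in Vec livers and 812 in the interaction. Total counts gave 66 by diet in Vec livers, and raised the calls on CD that were higher from 2603 of 4933 to 4469 of 5670; they moved the median gene by 0.28 on CD, 0.12 on LPD and −0.16 in the interaction, log2. Of the 71 connected genes, 11 to 42 were called on CD across all settings and 0 to 9 on LPD, where 0 to 3 were called without single libraries; no called fold change of a named one turned sign. With 3 mice a group, differences that are small beside the spread between mice can have been missed.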

Other observations

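*Bhmt* made up 67.5%, 77.2% and 78.8% of the *Bhmt* and *Bhmt2* pair per kilobase in CD Vec livers, 79.6%, 35.1% and 77.1% in CD c-MET/β-catenin livers, 67.5%, 52.4% and 67.3% in LPD Vec livers and 65.6%, 38.9% and 41.8% in LPD c-MET/β-catenin livers. Although the genes are neighbours on chromosome 13, their log2 ratio spread by an SD of 1.59 among the 3 CD c-MET/β-catenin livers and by 0.45 among the CD Vec livers. None of the 4 group comparisons of this ratio had an exact two-sided permutation p under 0.2.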
